A study of Danio rerio with 3 samples.

Results

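The genes described here are 9 transcription factors of the early zebrafish non-neural ectoderm and its border with the neural plate: dlx3b, dlx4b, dlx5a, foxi1, tfap2a, tp63, msxb, msxc and msxd. They were measured in embryos injected with a morpholino against FoxH1 and in embryos injected with a control morpholino. Oligos were assigned to them where the arrays' symbol, clone title or RefSeq accession named the gene. This found 23 oligos for 8 of the 9 genes, against 1075 genes with a symbol on the arrays. No oligo was matched to foxi1, which is not analysed here. Of the 23 oligos, 16 were usable on all 3 arrays and were tested, covering 7 genes, and tp63 had no tested oligo. The arrays' older names msxb, msxc and msxd correspond to msx1b, msx3 and msx2b in the RefSeq gene table.

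Each of the 3 two-colour arrays held RNA from a pool of 50 FoxH1 morphants and from a pool of 50 control morphants, whole embryos taken at 40% epiboly. The design text describes 3 independent repeats, so n = 3 pairs of pools. No strain is named in the labels, and neither is the morpholino's sequence or dose. Morphant RNA was labelled with Cy3 on arrays 1 and 2 and with Cy5 on array 3. A morpholino blocks translation or splicing and need not lower its target's transcript: foxh1 itself had log2 morphant-over-control ratios of -0.02, 0.07 and -0.13 on arrays 1, 2 and 3, which does not measure the knockdown.

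FoxH1 is a forkhead factor that works with Smad proteins downstream of Nodal signals, which specify mesoderm and endoderm at the embryo's margin. The genes described here belong to the neighbouring ectoderm. There, BMP signals on the ventral side favour epidermis, their absence dorsally permits neural plate, and intermediate positions form a border that gives rise to neural crest and placodes. Tfap2a, Foxi1, Tp63 and the Dlx and Msx homeodomain proteins act in these ventral and border territories.

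Two-colour ratios depend on knowing which column holds which sample. On array 3 this was not settled by the labels alone. Local background was higher in red than in green at 5.5% of array 1 spots, at 5.2% for array 2, and at 94.1% for array 3. Ratios of random control spots correlated at r = 0.93 between arrays 1 and 2, and at r = -0.73 between their mean and array 3 (132 spots). Columns were therefore read by sample, red for control and green for morphant. Over 26224 oligos, arrays 1 and 2 then correlated at r = 0.82, and array 3 at r = -0.35 and -0.47 with them. Means with the sign of array 3 turned are given for the 7 tested genes and for the related and marker genes named. With columns read by sample, a turned mean averages Cy3 over Cy5 rather than morphant over control. Without array 3, morphant RNA carried Cy3 on both arrays, so dye and morphant effects cannot be told apart.

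No gene of the group passed limma's test across all genes. At an adjusted p under 0.05, 0 of 7 tested genes and 0 of 16 tested oligos were called, and over the whole arrays 0 of 1022 genes and 0 of 26224 oligos (0% called at both levels). At an unadjusted p under 0.05 there were 104 genes and 2975 oligos on the arrays. The one-sample test without moderation also called none. The only gene of the group below 0 on all 3 arrays was msxd, and the only gene above 0 on all 3 was msxc. Over all tested genes, 18.1% were below 0 and 11.7% above 0 on every array. Among the oligos, 2 of 16 were below 0 on all arrays and 2 of 16 above, against 17.6% and 17.0% of all oligos. These shares are close to the background. The median log2 ratio of the 16 oligos was -0.0016, and that of all oligos was 0.017. By gene, the median of the 7 tested genes was 0.16, beside 0.01 for all genes. With a dye term these were 0.097 and -0.061, and with array 3 turned -0.044 and 0.090.

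**Figure D1:**
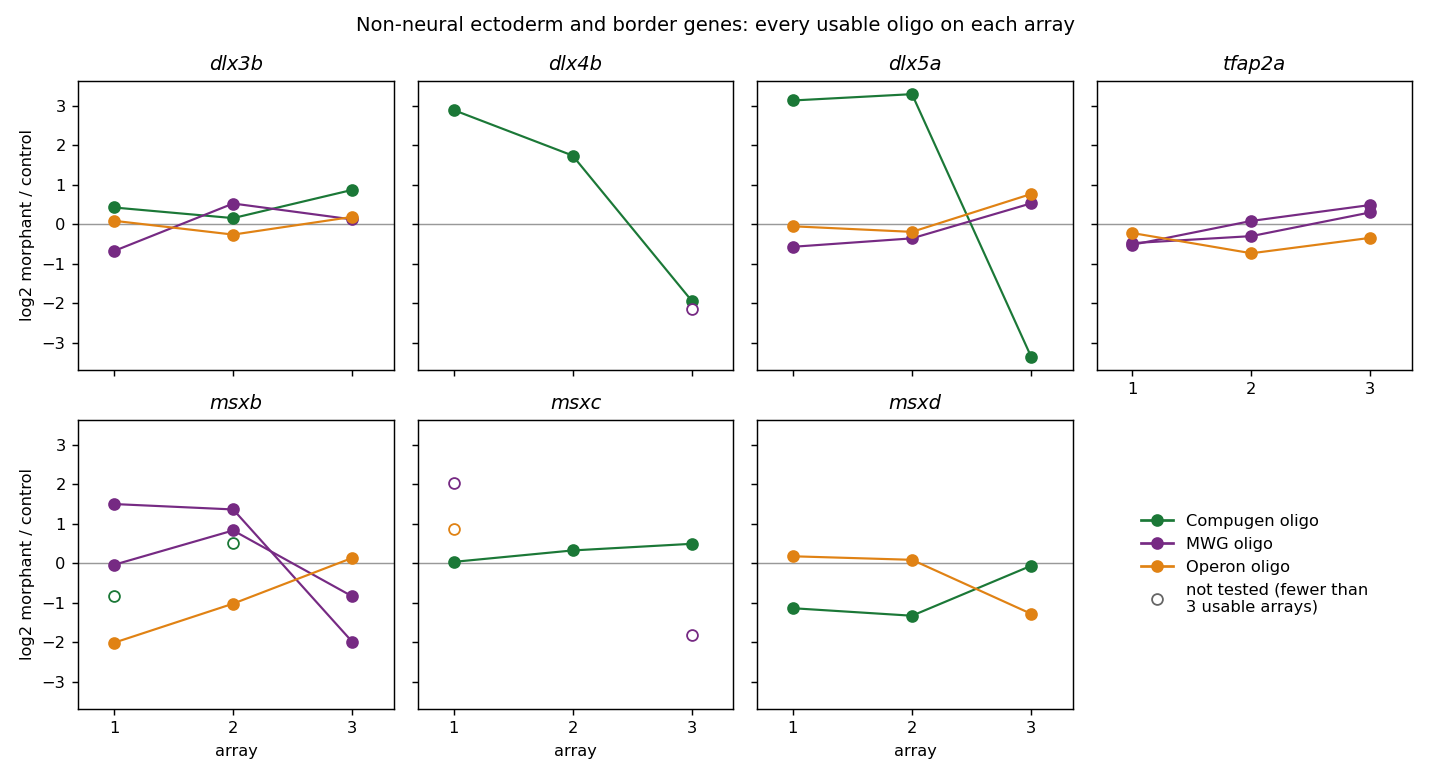
Log2 morphant-over-control ratio (y axis) of every usable oligo of 7 genes on arrays 1, 2 and 3 (x axis), coloured by oligo set, with open circles for oligos usable on fewer than 3 arrays. Above 0 on arrays 1 and 2 and below 0 on array 3 are 4 tested oligos. They are the Compugen oligos of dlx4b and dlx5a, the MWG oligo for U16311 of msxb and the Operon oligo of msxd. Another 4 have opposite signs: the MWG and Operon oligos of dlx5a, the MWG alpha 2 oligo of tfap2a and the Operon oligo of msxb. The Operon value of msxc, 0.88 on array 1, has its morphant spot at the floor of 1.0.

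The Dlx genes are homologues of Drosophila Distal-less, and dlx3b and dlx4b lie next to each other in the RefSeq gene table. Both are known for their part in the preplacodal border, including the ear placode. The ratio of dlx3b was -0.05, 0.14 and 0.39 on the 3 arrays, so it lay on both sides of 0. Its mean was 0.16 ± 0.22 (SD, n = 3; 95% interval -0.36 to 0.68; adjusted p = 0.862), and -0.10 with array 3 turned (adjusted p = 0.701). Here and below, intervals and p-values use limma's moderated variance, whereas the SD is the plain spread over arrays. Leaving out 1 array at a time gave means from 0.044 to 0.268. All 3 of its oligos were tested. The Compugen oligo was above 0 on every array, at 0.43, 0.16 and 0.87. The MWG and Operon oligos had means of -0.01 and 0.01.

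For dlx4b, 1 of 3 oligos was tested. The Compugen oligo had ratios of 2.90, 1.74 and -1.94, high in morphants on arrays 1 and 2 and low on array 3. The mean was 0.90 ± 2.52 (n = 3), with a 95% interval of -2.37 to 4.17 and an adjusted p of 0.868. Intensities were 53.6 in control and 132.9 in morphant on array 1, 76.2 and 127.3 on array 2, and 208.5 and 129.4 on array 3. The oligo was dim, brighter than only 11.6% of tested oligos. Its control value on array 1 was 2.84 background SDs, and its quality score on array 2 was 0.4. Under this reading of the columns the Cy3-labelled sample was the brighter on each array, and a term for the dye left a morphant effect of 0.19. With array 3 turned the mean was 2.19 (adjusted p = 0.0184), and without array 3 it was 2.32 (adjusted p = 0.0259). Without array 1 it was -0.10. The MWG oligo was usable on array 3 only, at -2.15, and the Operon oligo on none.

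The third Dlx gene, dlx5a, lies beside dlx6a and marks the border and later the ventral branchial arches. Its ratio was 0.84, 0.92 and -0.68, with a mean of 0.36 ± 0.90 (n = 3; 95% interval -0.88 to 1.60; adjusted p = 0.868). Its 3 oligos gave opposite patterns. The Compugen oligo was at 3.14, 3.30 and -3.35. The MWG oligo was at -0.57, -0.36 and 0.53, and the Operon oligo at -0.05, -0.19 and 0.77.

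The gene's mean had the sign of its Compugen oligo on each array. That oligo's intensities were 137.5 in control and 477.0 in morphant on array 1, 134.7 and 525.2 on array 2, and 462.9 and 114.9 on array 3. The Cy3 value thus lay between 462.9 and 525.2 and the Cy5 value between 114.9 and 137.5, whichever sample carried the dye, with the columns read by sample. On the Operon oligo, Cy5 was the brighter on every array, with 3172.4 against 972.8, 2170.8 against 601.2 and 2816.7 against 611.5. These are unnormalized values, and the median oligo also had the higher Cy5 value on every array, at 467.1 against 190.7, 337.9 against 146.6 and 383.7 against 161.6. With a dye term the morphant effects of the 3 oligos were -0.07 (Compugen), 0.03 (MWG) and 0.32 (Operon), and that of the gene 0.10. With array 3 turned the gene was at 0.81 (adjusted p = 0.0258), and without array 3 at 0.88 (adjusted p = 0.0176). Without array 1 it was at 0.12 and without array 2 at 0.077.

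**Figure D2:**
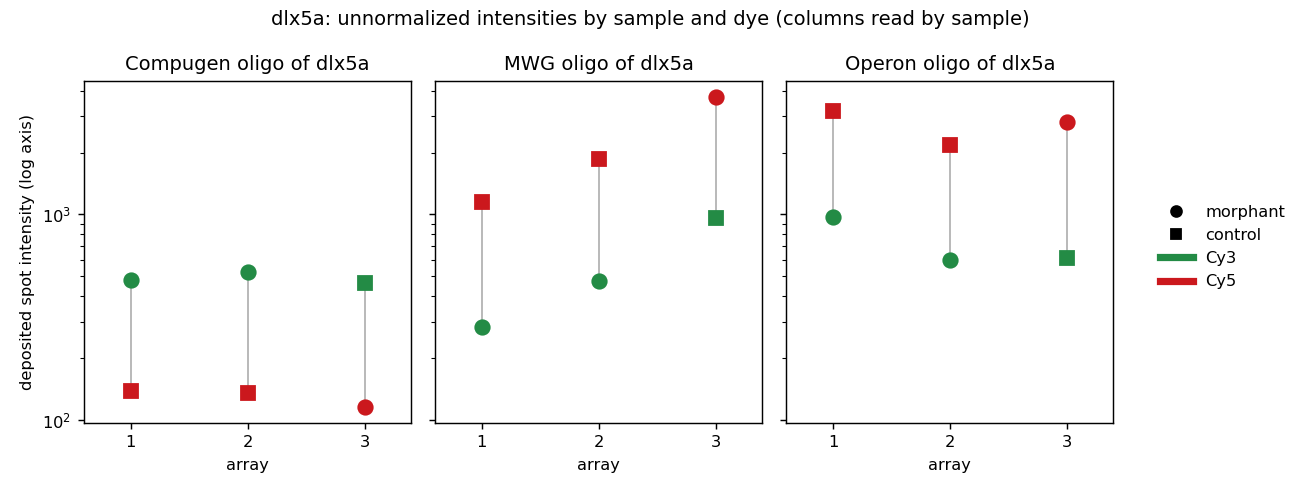
Deposited spot intensity (y axis, log scale) of the 3 dlx5a oligos on arrays 1 to 3 (x axis), with circles for morphant, squares for control, green for Cy3 and red for Cy5. With columns read by sample, Cy3 is the brighter on every array at the Compugen oligo, and Cy5 at the MWG and Operon oligos, as for the median oligo of each array.

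tfap2a encodes the AP-2 alpha factor, needed for neural crest and active in non-neural ectoderm. Its ratio was -0.41, -0.32 and 0.15, below 0 on arrays 1 and 2 and above 0 on array 3. The mean was -0.19 ± 0.30 (n = 3; 95% interval -0.77 to 0.39; adjusted p = 0.855), and -0.29 with array 3 turned (adjusted p = 0.202). Leaving out 1 array at a time gave means from -0.36 to -0.083. The Operon oligo was below 0 on all arrays, at -0.22, -0.73 and -0.34, with a mean of -0.43 ± 0.27 (adjusted p = 0.533). The MWG oligos titled alpha 1 and alpha 2 had means of 0.02 and -0.16. The Operon oligo is titled alpha 2 but carries the accession of the MWG alpha 1 oligo, so these oligos cannot be assigned to isoforms. The MWG alpha 1 oligo was at -0.52, 0.09 and 0.49.

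tp63 encodes p63, whose delta-N form is required for epidermal growth in zebrafish. Its only oligo, titled deltaNp63, was usable on array 3 alone, with intensities of 89.2 in control and 242.1 in morphant and a ratio of 0.24. On arrays 1 and 2 the control read 98.7 and 71.3, and the morphant spot stood at 1.0, the floor of the column, with a quality score of 0. No difference can be read from it. A further 4 oligos titled only as similar to p63 were not counted as tp63. Their mean ratios were -0.02 ± 0.61, 0.54 ± 0.25, 0.47 ± 0.22 and -0.18 ± 0.23. None passed limma's test (adjusted p = 0.982, 0.446, 0.479 and 0.751).

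The Msx genes are homologues of Drosophila msh and are known as BMP-responsive repressors at the neural plate border. msxd was the gene of the group with the smallest p. Its ratio was -0.48, -0.62 and -0.67, below 0 on every array and with the smallest SD among the 7 tested genes. The mean was -0.59 ± 0.10 (n = 3; 95% interval -1.04 to -0.14). The unadjusted p was 0.0235, the adjusted p 0.374, and msxd ranked 63 of 1022 genes by p. It did not pass.

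The 2 tested oligos of msxd differed in the arrays on which they were low. The Compugen oligo was at -1.14, -1.33 and -0.06, with the low values on arrays 1 and 2. The Operon oligo was at 0.18, 0.09 and -1.28, with the low value on array 3. The narrow spread of the gene's mean therefore does not hold for either oligo, whose SDs over arrays were 0.68 and 0.82. With a dye term the 2 oligos gave -0.65 and -0.57, and the gene -0.61 (adjusted p = 0.0798). The gene was at -0.14 with array 3 turned (adjusted p = 0.790). Without array 3 it was at -0.55 (adjusted p = 0.0343), a call among 45.5% of all genes called under that setting. With poor spots kept, which adds the MWG oligo, it was at -0.13. The MWG oligo had a quality score of 0 on every array, and its morphant spot stood at the floor of 1.0 on arrays 1 and 2. That value therefore cannot be read as a weaker effect.

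msxb had 4 oligos, of which 3 were tested. The gene's ratio was -0.18, 0.39 and -0.90, on both sides of 0, with a mean of -0.23 ± 0.65 (n = 3; 95% interval -1.16 to 0.71; adjusted p = 0.868). The MWG oligo for U16311 was at 1.50, 1.37 and -1.99, and the Operon oligo for the same accession at -2.01, -1.02 and 0.14. These 2 oligos, designed against 1 transcript record, were on opposite sides of 0 on every array. The MWG oligo for M38579 was at -0.04, 0.83 and -0.84. With array 3 turned the gene was at 0.37 (adjusted p = 0.370), and without array 3 at 0.11.

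msxc had 1 tested oligo of 3. The Compugen oligo was above 0 on each array, at 0.04, 0.33 and 0.49, with a mean of 0.29 ± 0.23 (n = 3; 95% interval -0.24 to 0.81; adjusted p = 0.714). The mean was -0.04 with array 3 turned. The MWG oligo, usable on arrays 1 and 3, was at 2.03 and -1.83. On array 1 the Operon oligo's morphant spot stood at the floor of 1.0, beside 167.4 in control, with a quality score of 0.2. After loess this spot had a ratio of 0.88, which cannot be read as a higher level in morphants.

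How far 1 gene's oligos differ was compared with other genes. The range of oligo means was 1.16 for dlx5a and 1.26 for msxb, with 3 oligos each, and 0.494 for dlx3b and 0.451 for tfap2a. The median range over 307 genes with 3 tested oligos was 0.695. For msxd, with 2 oligos, it was 0.505, beside a median of 0.407 over 402 such genes. With a dye term the range fell for dlx5a (to 0.391), msxb (to 0.471) and msxd (to 0.0748). It rose for dlx3b (to 0.557) and tfap2a (to 0.546). The medians were then 0.442 for 3 oligos and 0.274 for 2. A dye term leaves 1 residual degree of freedom, and it called no gene.

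Turning array 3 gave other calls. It called dlx4b and dlx5a, 2 of 7 genes, where 21.7% of all genes were called, and 3 of 16 oligos, where 9.53% of all oligos were called. Leaving out array 3 called dlx4b, dlx5a and msxd, 3 of 7 genes beside 45.5% of all genes, and 3 of 16 oligos beside 22.7%. Of the 16 oligos, 8 (50.0%) had opposite signs on array 3 and on both other arrays, and the share was 49.6% over all oligos. In 4 of these 8 the Cy3-labelled sample was relatively brighter on every array, and in the other 4 the Cy5-labelled sample. The dye effects of dlx4b and dlx5a were 2.13 and 0.78 on the log2 scale, beside turned means of 2.19 and 0.81. Both measures set arrays 1 and 2 against array 3, so they lie close by construction and their likeness tests nothing. The name dye effect holds only with columns read by sample.

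**Figure D3:**
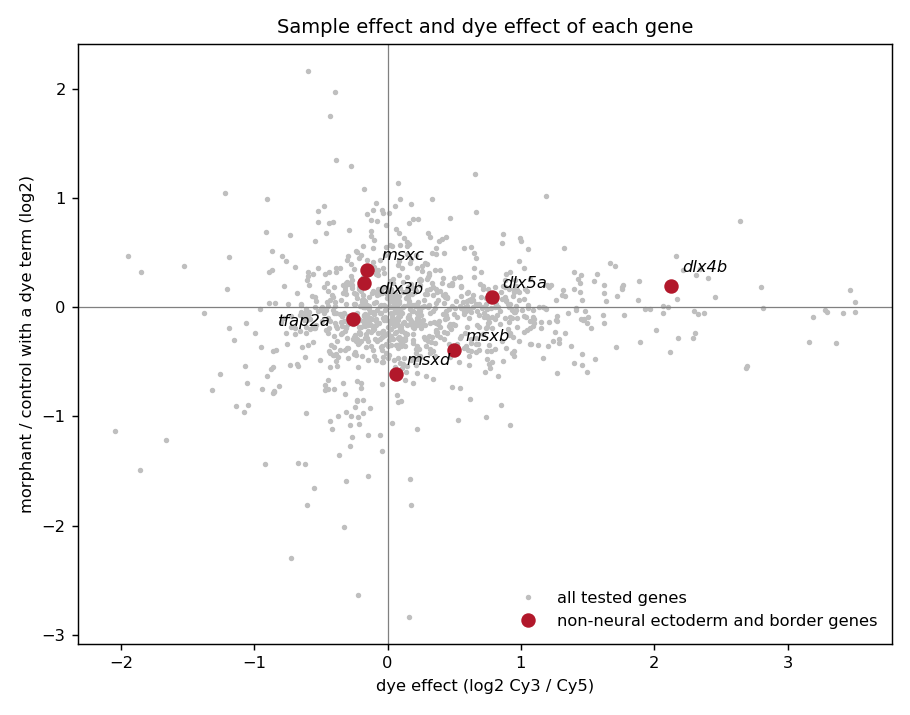
Log2 morphant-over-control ratio fitted with a dye term (y axis) against the dye effect, log2 Cy3 over Cy5 (x axis), for 1022 genes (grey) and the 7 tested genes of the group (red). dlx4b lies far to the right, with a dye effect of 2.13 and a ratio of 0.19, and msxd is the lowest of the 7, at -0.61.

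**Figure D4:**
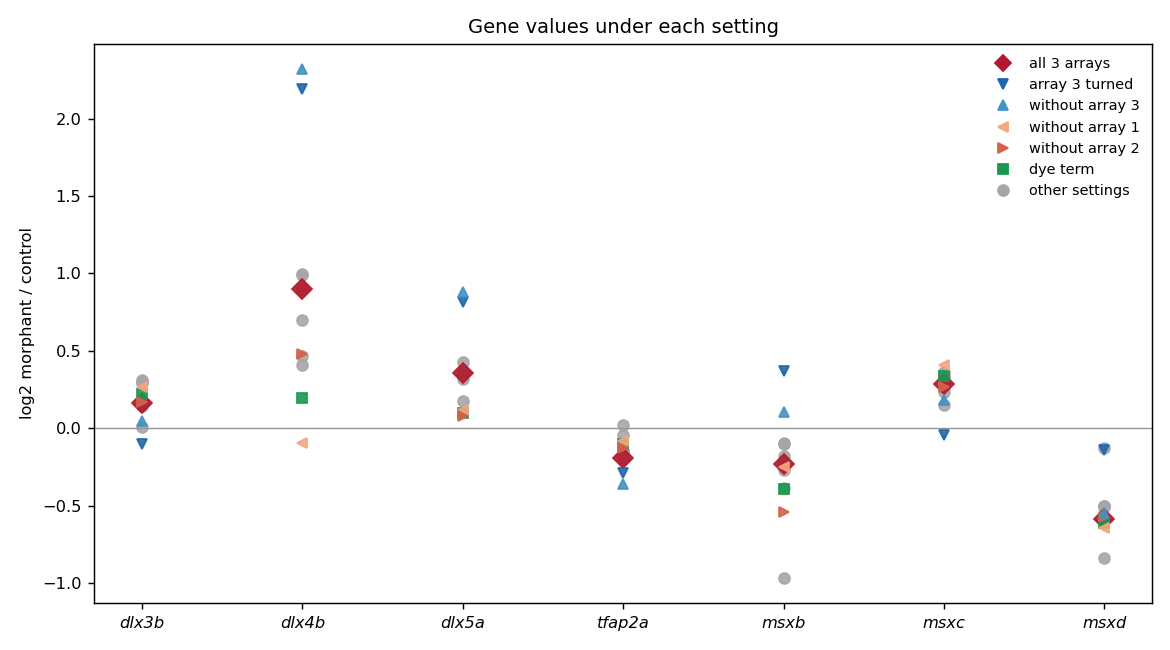
Log2 morphant-over-control ratio (y axis) of the 7 tested genes (x axis) under each processing setting, with all 3 arrays as diamonds. dlx4b ranges from -0.10 without array 1 to 2.32 without array 3, and msxd ranges from -0.84 with the brightest oligo to -0.13 with poor spots kept. Keeping poor spots adds an msxd oligo with a quality score of 0 on every array.

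Related genes were taken from lists chosen with earlier results of these data known. Among the other Dlx and Msx genes, 7 of 7 were measured and 0 were called, and none had 1 sign on all arrays. Turning array 3 called 3 of 7, where 21.7% of all genes were called. Their median was 0.24, beside 0.01 for all genes. With a dye term it was 0.047, beside -0.061 for all genes. The branchial arch gene dlx2a was at 2.22, 1.95 and -1.33, and its mean with array 3 turned was 1.83. Its sequence of signs, also seen in dlx4b and dlx5a, was that of 387 of all 1022 genes, and dlx1a had the opposite signs. msx1a was at 1.24, 0.91 and -0.69, with a turned mean of 0.95. dlx6a, the neighbour of dlx5a, had a mean of 0.24 ± 0.41, and dlx1a of -0.32 ± 0.71. Turned, these were 0.22 and -0.64.

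In the BMP pathway list, 21 of 34 genes were measured, 0 were called, 8 were below 0 on all arrays and 1 above, and the median was -0.18. Over all genes, 18.1% were below and 11.7% above 0 on every array. Turning array 3 called 3 of the 21, beside 21.7% of all genes. The ligand bmp4 was at -1.23, -1.08 and -0.67, low on every array, with a mean of -0.99 ± 0.29 (adjusted p = 0.269). The ventral homeobox repressors ved and eve1 had means of -1.03 ± 0.22 and -1.14 ± 0.37. The BMP receptor gene bmpr1ba was above 0 on every array, with a mean of 0.93 ± 0.24. None of these passed the test. Turned, bmp4, ved, eve1 and bmpr1ba were at -0.55, -0.50, -0.57 and 0.24.

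Of the other epidermis and non-neural ectoderm genes, 6 of 20 were measured, 0 were called, 0 were below 0 on all arrays and 1 above, with a median of 0.05. No call was made among them when array 3 was turned. The Krüppel-like factor genes klf4 and klf17 had means of 0.38 ± 0.35 and 0.27 ± 0.08, and turned means of 0.39 and 0.028. The keratin gene krt5 was at 0.00, -0.08 and -1.75, low on array 3 alone, so that its mean was -0.61 and its turned mean 0.56. E-cadherin, cdh1, had a mean of 0.09 ± 0.25 and a turned mean of 0.22.

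Of the border, neural crest and placode genes, 20 of 29 were measured and 0 were called. Of these, 3 were below 0 on all arrays and 1 above. The median was 0.14, or 0.0032 with a dye term, beside 0.01 and -0.061 for all genes. The turned sign called 9 of 20, beside 21.7% of all genes. The Iroquois gene irx7 was at 0.84, 0.82 and 0.90, high on every array (mean 0.85 ± 0.04; adjusted p = 0.269). irx1b and the Snail gene snai1b had means of -0.91 ± 0.31 and -0.91 ± 0.59, and the paired-box gene pax7a of 0.33 ± 0.31. Turned, irx7, irx1b, snai1b and pax7a were at 0.26, -0.46, -0.72 and 0.33.

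**Figure D5:**
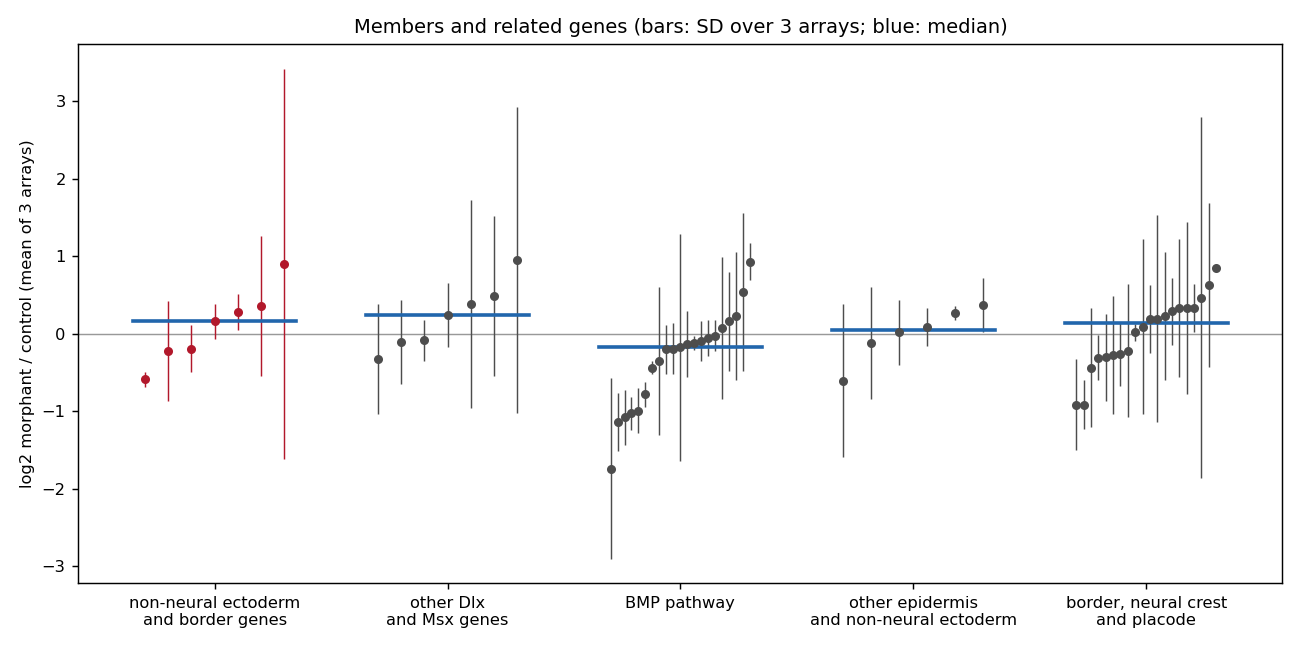
Mean log2 morphant-over-control ratio (y axis; bars show the SD over 3 arrays) of the 7 tested genes and of each list of related genes (x axis), with list medians as blue lines. msxd is the lowest of the group at -0.59, whereas with array 3 turned it is at -0.14 and tfap2a is lowest at -0.29. The list medians drawn lie between -0.18 and 0.24.

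RNA came from whole embryos, so fewer cells of a type and less RNA per cell cannot be told apart. Levels of marker genes of other cell types are given as values, since 0 of the measured markers in any list were called with columns read by sample. Their part in the values above was not tested. Of the mesendoderm markers, 9 of 9 were measured and 7 were below 0 on all arrays (median -1.19, range -2.78 to 0.30), beside 18.1% of all genes. tbx6, sox32 and tbx16 were at -2.78 ± 0.41, -1.60 ± 0.23 and -1.19 ± 0.07, and with array 3 turned at -0.79, -0.66 and -0.45. Of the enveloping layer markers, 6 of 9 were measured, 3 were below 0 and 1 above on all arrays, and the median was -0.73. The marker above 0 was klf17. krt4, cyt1 and cldnf were at -1.52 ± 0.20, -1.47 ± 0.55 and -0.84 ± 0.22, and turned at -0.36, -0.81 and -0.21. Of the neural ectoderm markers, 6 of 9 were measured, and 1 was below 0 and 1 above on all arrays. Their median was 0.29, or -0.15 with a dye term, beside 0.01 and -0.061 for all genes. The turned sign called 2 of these 6, beside 21.7% of all genes, and 0 of the measured markers in each other marker list. her5 was at 1.61 ± 0.52, otx2b at -0.48 ± 0.36 and rx3 at -0.49 ± 0.50, and turned at 0.16, -0.43 and -0.54. The yolk syncytial layer was represented by gata6 alone, 1 of 6 markers, at -0.76 ± 0.41 (turned -0.43). Of the germ cell markers, 3 of 5 were measured: dazl was at 1.96 ± 0.75, nanos3 at 0.72 ± 0.75 and ddx4 at 0.05 ± 0.06, and turned at 0.12, 0.82 and 0.058.

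The genes with ratios most like those of the 3 group members with the smallest p were found by Euclidean distance over the 3 arrays. Nearest to msxd were skia (distance 0.118) and mafaa (0.182). These distances use the mean of the 2 msxd oligos, which were low on different arrays. Nearest to msxc were nog3 (0.195) and gng3 (0.220). Nearest to tfap2a were twsg1a (0.0417) and angpt2b (0.0677). With 3 arrays, these distances describe the values only.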

How the data were processed

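Per the file headers, the authors deposited red and green mean spot intensities, with the intensity and SD of the local background. The values show that the background was already taken off. The authors' deposited ratio is red over green divided by 1 constant per array (2.8186, 2.7008 and 0.3985), within 1% at 99.39% or more of spots. The deposited quality score was 0 at 15.44%, 15.42% and 13.08% of oligo spots, which were left out. The authors' deposited log2 matrix is the negative log2 of the same ratio (within 0.01 at 100.0% of values), with column medians of -0.02, 0.00 and 0.00. This settles its scale and centring but not its direction on array 3. The scanner is not given in the sources used here. RNA was amplified according to the design text, whereas the labels' protocol has total RNA reverse transcribed directly.

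Log2 green over red was normalized by loess (span 0.3, 4 iterations) within each array, and replicate spots were averaged. Median oligo intensities were 467.1, 337.9 and 161.6 for control and 190.7, 146.6 and 383.7 for morphant RNA. Tested oligos were usable on all 3 arrays and, on 2 or more of them, exceeded 2 background SDs in red or green. Oligos were averaged to a value per gene. Of 33745 oligos, 2651 had a gene. RefSeq accessions were named through the GRCz12tu gene table (1306 of 1379 matched). Fitting was done with lmFit and eBayes of limma 3.58.1 (R 4.3.3) without a dye term, with Benjamini-Hochberg adjustment over all features. The code was also run on simulated normal values with a common SD for all features, which does not measure its error rates on these arrays. Figures used Python 3.11.15, pandas 2.3.3 and matplotlib 3.10.9.

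Named genes are all members with their oligos, up to 4 genes with the smallest p from each related list, up to 3 from each marker list, and the 2 nearest genes for 3 members. Members, lists and the reading of array 3 were chosen with earlier results of these data known. Promoter motifs were not analysed here. Alternatives covered array 3 turned, a dye term, normalization, background, filters, quality, moderation, the brightest oligo and each array left out.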

Additional observations from a re-analysis of the deposited data

How the results depend on the processing

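Of 105 gene values under the alternatives, 94 kept their direction and side of the threshold. Another 5 passed it with the same direction, and 6 turned direction. The cause was not tested. Some agreement was fixed in advance. Dropping the low-value filter kept the same 26224 oligos, and omitting moderation cannot change a mean. Requiring both columns above background kept the same 16 oligos of the group, so all 7 means stayed as they were. Allowing oligos usable on 2 arrays changed only the means of msxb and msxc. Taking the brightest oligo cannot change the means of dlx4b and msxc, with 1 tested oligo each. The count also ignores size: dlx4b, at 0.90 in the main fit and 0.19 with a dye term, counts as kept. With array 3 turned, 2499 of 26224 oligos (9.53%) and 222 of 1022 genes (21.7%) were called. In the group, 3 of 16 oligos and 2 of 7 genes were called. Of the 16 oligos, 4 were below and 4 above 0 on all arrays (median -0.11), beside 6489 and 6514 of all 26224 (median -0.043). Turning array 3 changed the direction of dlx3b (to -0.10), msxb (to 0.37) and msxc (to -0.044). Deposited values left 1 of 16 oligos below 0 on all arrays, beside 4211 of 26224. Print-tip loess left 4 of 16 above, beside 4891 of 26224, with a group median of 0.11, beside 0.014 for all oligos. The brightest oligo put tfap2a at 0.019.

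Leaving out each array in turn gave 0 to 5943 oligos and 0 to 465 genes called. In the group it gave 0 to 3 of 16 oligos and 0 to 3 of 7 genes called. Medians of the group's oligos ran from -0.0972 to -0.0145, beside -0.0119 to 0.0036 over all oligos. Of the 16 oligos, 2 to 6 were below 0 and 3 to 6 above 0 on the remaining arrays. Over all 26224 oligos, these counts were 5302 to 11104 below and 5150 to 10969 above. dlx4b ranged from -0.10 to 2.32 and msxb from -0.54 to 0.11. Among these 3 fits, calls appeared only without array 3, where every morphant pool carried Cy3. tp63 had a value only with poor spots kept. Each array holds a morphant and a control pool, so every ratio and test already uses that pairing. No further pairing between arrays was available. The 3 arrays limit the precision of every value. Tested oligos came as low as 2.46 (tfap2a, MWG alpha 2), 2.84 (dlx4b) and 3.0 (dlx3b, MWG) background SDs in a column of an array. The group's tested oligos were brighter than 11.6% (dlx4b) to 91.9% (tfap2a, MWG alpha 1) of all tested oligos.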
